A study of Mus musculus with 2 samples.

Results

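The network described here is formed by 10 genes of transcription factors that pair with MAX or with its relative MLX: Myc, Mycn, Max, Mnt, Mxd1, Mxd3, Mxd4, Mxi1, Mlx and Mlxip. They were taken by gene symbol from the annotation of the array, which assigns them 22 of 45037 probe sets, and they stand for 10 of the 18193 genes that it lists. The set was selected on values of these same arrays that had been seen, above all the difference of Mnt, so every value below is a description and none is tested. The cells were HT22, a line of mouse hippocampal nerve cells kept in serum-containing medium, and they received either J147, a neurotrophic compound, or its DMSO vehicle for 1 h. The concentration of J147 is 10 mM in the sample labels and 10 μM in the methods. The control sample is titled DMSO vehicle, while its treatment label reads untreated. Each condition was measured on 1 Affymetrix mouse GeneChip array, so no difference has a replicate check, and an effect of J147 cannot be told apart from another difference between the cultures.

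MYC and MYCN are bHLH-leucine zipper factors that bind DNA only as dimers with MAX, mostly at the E-box, and activate genes of growth, ribosome production and metabolism. MNT and the MXD proteins, of which MXI1 is a member, compete for MAX and for the same sites and recruit SIN3 and histone deacetylases, which represses those genes. MLX is the partner of MLXIP, also known as MondoA, which responds to glucose phosphates, and it can also pair with MNT and some MXD proteins. In many cell types Myc is an early response gene, whose mRNA climbs soon after growth factors are added.

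RefSeq promoters of build GRCm38.p6, each 250 bases before to 50 bases after a gene start, were at hand for 9 of the genes, in 11 sequences. The gene without one was Myc. The E-box CACGTG, the site that MYC, MNT and MXD proteins bind with MAX, lay in 4 of the 11, those of Mnt, Mxd4, Mlx and Max. It lay in 7.15% of all 32851 promoters of the table and in 10.3% of the 13456 whose GC content was within the members' range of 55.0% to 76.7%. The 4 sites are shown with 20 bases on each side, in the direction of the gene and with the E-box in capitals. They lie at chr11:74830781-74830826 (+ strand) for Mnt, chr5:34187904-34187949 (- strand) for Mxd4, chr11:101087230-101087275 (+ strand) for Mlx and chr12:76962226-76962271 (- strand) for Max.
Mnt: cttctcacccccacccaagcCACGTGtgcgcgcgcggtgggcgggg
Mxd4: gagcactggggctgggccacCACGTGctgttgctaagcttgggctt
Mlx: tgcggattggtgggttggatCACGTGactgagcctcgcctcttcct
Max: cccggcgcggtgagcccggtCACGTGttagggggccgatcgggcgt

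The Mnt promoter is given in full up to its start, at chr11:74830674-74830927 (+ strand), because Mnt had the largest difference of the network. Capitals mark the E-box, which begins 123 bases before the start, and an EGR site, GCGGGGGCG, which begins 5 bases before the start and ends 4 bases after it.
Mnt promoter: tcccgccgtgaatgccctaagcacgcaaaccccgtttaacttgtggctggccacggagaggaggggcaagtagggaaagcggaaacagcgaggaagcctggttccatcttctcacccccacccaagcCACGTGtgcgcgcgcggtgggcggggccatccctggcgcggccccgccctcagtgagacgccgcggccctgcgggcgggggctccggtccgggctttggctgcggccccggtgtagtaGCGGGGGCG
On both strands, GCGGGGGCG or GCGTGGGCG lay in 1 of the 11 promoters of the network, that of Mnt, and in 3.47% of all promoters. The cAMP response element TGACGTCA and the CArG box lay in 0 of the 11, against 1.79% and 1.63% of all promoters. The shares of all promoters given for the EGR site and for these motifs were not matched for GC content. These matches describe the letters of the promoters, and no binding was measured.

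Intensities are given as the deposited log2 values, in which the authors' gcRMA summary leaves many probe sets at a lowest value of 2.23, called the floor here. The log2 difference, J147 minus vehicle, was taken after each array was scaled to a median of 100, which moved every difference by -0.00459. A probe set was scored when its mean scaled intensity was above 100. Of the 22 probe sets of the network 17 were scored, with at least 1 for each of the 10 genes, while 4 of the other 5 were within 0.01 log2 units of the floor on both arrays. Probe sets differ in their affinity for their target, so the levels of different genes are not ranked.

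**Figure D1:**
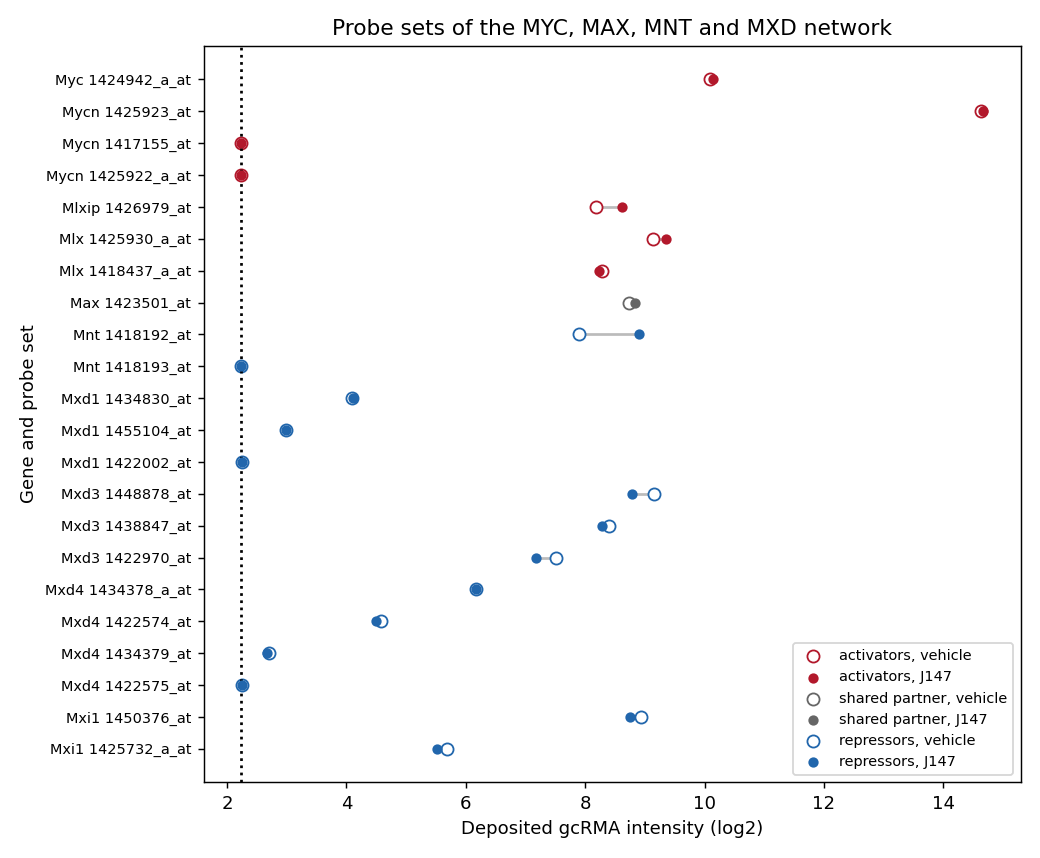
Deposited gcRMA intensity on the log2 scale (horizontal axis) of each of the 22 probe sets of the network (vertical axis), 1 vehicle array (open circles) and 1 J147 array (filled circles), with activators in red, Max in grey and repressors in blue. The dotted line is the lowest value, 2.23, and the longest grey line between the circles belongs to Mnt 1418192_at.

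On the J147 array 1 of the 17 scored probe sets was at least 2-fold higher, that of Mnt, and none was at least 2-fold lower. Of all 22545 that were scored, 0.0754% were 2-fold higher or more. At 1.5-fold the counts for the network were the same, 1 higher and none lower, against 0.856% higher and 0.781% lower over all scored probe sets. The other 16 probe sets of the network had differences smaller than 1.5-fold, 6 of them above 0.01 log2 units, 8 below -0.01 and 2 between.

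Mnt, the repressor of the network that is made in most proliferating and resting cells, had log2 intensities of 7.89 with vehicle and 8.90 with J147 by probe set 1418192_at. The scaled intensities were 4825 with vehicle and 9668 with J147, a fold of 2.004 and a log2 difference of 1.00. Among all scored probe sets the difference took place 17 from the largest rise, which is also the last place at or above 2-fold, and among the 10611 scored genes it took place 7. With 50 added to each scaled intensity the log2 difference was 0.995, under 2-fold, and over all settings tried it lay between 0.995 and 1.03. Other filters returned the same value by construction, since the brightest Mnt probe set passed each of them. Other ways to combine probe sets did so too, since only 1 Mnt probe set was scored. Its 500 neighbours in level among the scored probe sets had log2 differences with an SD of 0.17, which is a spread between probe sets and not an error between cultures. The other Mnt probe set, 1418193_at, lay at the floor on both arrays, so the difference rests on 1 probe set. Bulk RNA does not tell a change in all cells from a change in some of them.

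Mxd3, a MAX dimerization protein found in dividing cells, was lower on the J147 array by each of its 3 probe sets. Probe set 1448878_at, the brightest, had log2 intensities of 9.16 with vehicle and 8.79 with J147, 1438847_at had 8.40 and 8.28, and 1422970_at had 7.51 and 7.18. The log2 differences were -0.38, -0.13 and -0.33, against SDs of 0.16, 0.17 and 0.19 among the probe sets nearest in level. The 3 readings thus had the same sign but were 0.25 log2 units apart. For comparison, the 5194 genes with more than 1 scored probe set had a median range of 0.14 log2 units between their probe sets. Those genes were not matched to Mxd3 in their number of probe sets, and a range tends to widen with that number. The brightest Mxd3 probe set corresponds to 1.30-fold lower, and 5.17% of all scored probe sets differed by at least as much in either direction.

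Mxi1, which carries the same SIN3-binding role, was slightly lower by both probe sets. The log2 intensities were 8.94 with vehicle and 8.75 with J147 by 1450376_at and 5.68 and 5.51 by 1425732_a_at. The differences of -0.19 and -0.17 were close to each other, 0.0133 log2 units apart, and to the SDs of 0.16 and 0.23 of their neighbours in level. A share of 19.2% of the scored probe sets had a difference of that size or larger.

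Mxd1 and Mxd4, MXD proteins linked to differentiation and the exit from the cell cycle, were near alike on both arrays. Mxd1 had log2 intensities of 4.09 with vehicle and 4.11 with J147 by 1434830_at and the identical value of 2.98 on both arrays by 1455104_at, and the remaining probe set, 1422002_at, was not scored at 2.24. Mxd4 had the identical value of 6.18 on both arrays by its brightest probe set, 1434378_a_at. Its values were 4.59 with vehicle and 4.49 with J147 by 1422574_at and 2.70 and 2.67 by 1434379_at, and 1422575_at was not scored at 2.25. All 5 scored probe sets of these repressors had differences between -0.10 and 0.01, and all but 1434378_a_at lay below a log2 intensity of 5. Identical values were common in the table, at 18.9% of the scored probe sets.

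Among the activators, Mlxip had the largest difference. Its single probe set, 1426979_at, had log2 intensities of 8.19 with vehicle and 8.62 with J147, a log2 difference of 0.43 and a fold of 1.35. The SD of the differences of its neighbours in level was 0.18, and 3.83% of all scored probe sets differed by at least as much. Its partner Mlx was read in opposite directions by its probe sets. Probe set 1425930_a_at had 9.14 with vehicle and 9.35 with J147, a difference of 0.21, and 1418437_a_at had 8.28 and 8.23, a difference of -0.06. These readings were 0.27 log2 units apart, so the direction of Mlx is not settled.

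Myc was measured well above the floor and was close to equal on both arrays. Its single probe set, 1424942_a_at, had log2 intensities of 10.10 with vehicle and 10.14 with J147, a fold of 1.03, and 57.8% of all scored probe sets differed by at least as much. Mycn, the paralog best known from neural progenitors, had log2 intensities of 14.63 and 14.67 by 1425923_at, also a fold of 1.03. Differences were small among its neighbours in level, with an SD of 0.07, and whether so bright a probe set was saturated was not tested. The other Mycn probe sets, 1417155_at and 1425922_a_at, lay at the floor on both arrays. The probe sets of Mycn therefore disagree on its level, near the top of the scale by the first and unmeasurable by the others. Max, the partner of both sides, had 8.74 with vehicle and 8.84 with J147 by 1423501_at, a log2 difference of 0.09 that 40.5% of all scored probe sets equalled or exceeded in size.

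**Figure D2:**
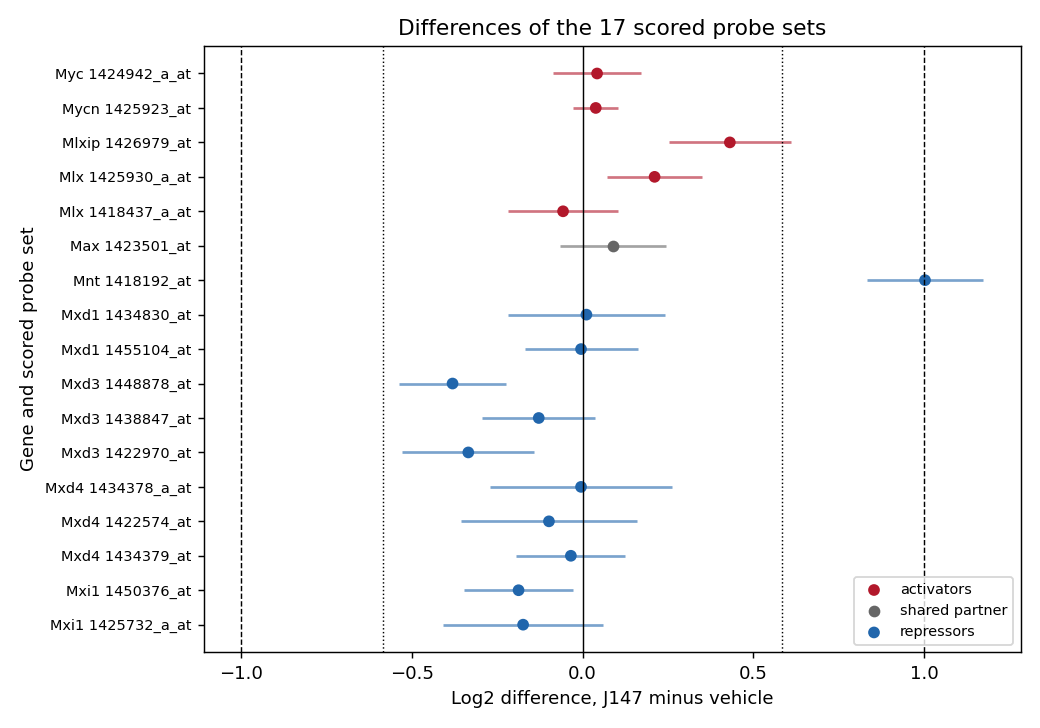
Difference of J147 minus vehicle in log2 units (horizontal axis) for the 17 scored probe sets (vertical axis), with bars for the SD of the differences among 500 neighbours in level, which are not errors between replicates. Dashed lines mark 2-fold and dotted lines 1.5-fold, and Mnt lies on the 2-fold line, apart from the Mxd3 and Mxi1 probe sets on the left.

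The comparison of activators with repressors used the brightest scored probe set of each gene. The 4 activators, Myc, Mycn, Mlxip and Mlx, which was counted here for its pairing with MLXIP, had log2 differences from 0.04 to 0.43 and a median of 0.13, with Mlx taken at the 0.21 of its brighter probe set. That median lay between 0.0405 and 0.235 over the settings tried, and it was 0.0596 when the probe sets of a gene, and so the opposite readings of Mlx, were averaged. The 5 repressors ran from -0.38 for Mxd3 to 1.00 for Mnt, a wider range that encloses that of the activators. Their median was -0.00 and lay between -0.10 and 0.03 over the settings tried, so its sign is not settled. In the main setting that median was the value of Mxd4 by 1434378_a_at, whose deposited value was identical on both arrays. The -0.00 of the repressors is thus the scaling shift alone. The median of all scored genes was -0.00 as well. The repressors' median was lower than the activators' by a difference of -0.13 log2 units. It was -0.22 without Mnt, a setting chosen after seeing the data, and -0.05 when Myc and Mycn alone stood for the activators. Without probe sets of the suffixes _x_at, _s_at and _a_at it was -0.33. That setting drops Myc and Mlx and reads Mxd4 by 1422574_at, at -0.10. The repressors did not move as a group, since Mnt was higher, Mxd3 and Mxi1 were lower, and Mxd1 and Mxd4 were near 0. With so few genes and 1 array per condition, the medians describe these arrays alone.

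**Figure D3:**
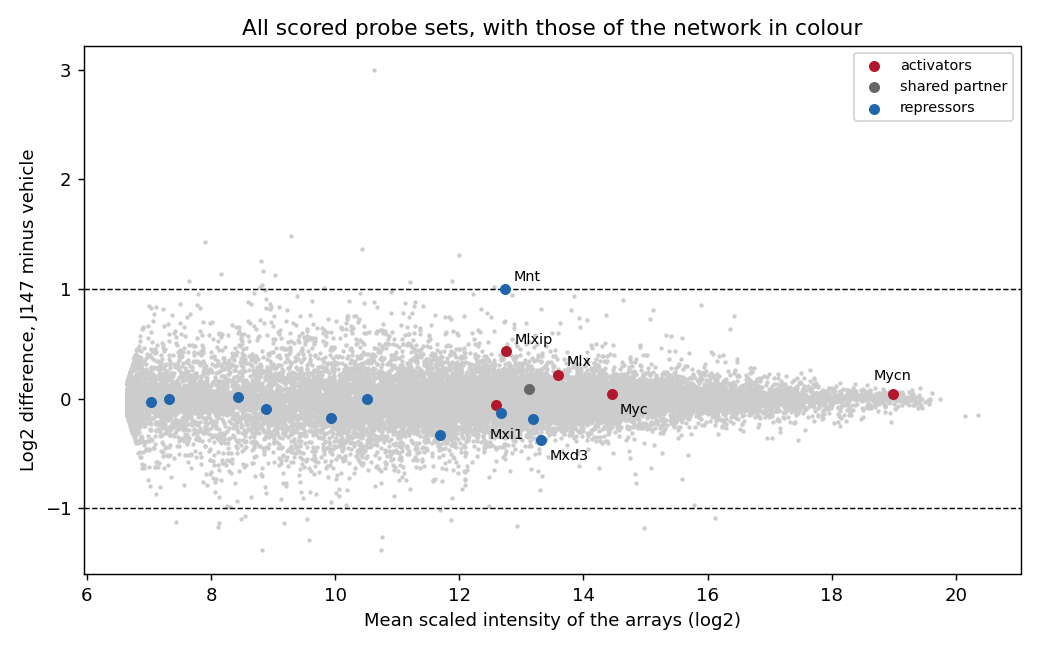
Log2 difference, J147 minus vehicle (vertical axis), against the mean scaled intensity of both arrays on the log2 scale (horizontal axis) for all 22545 scored probe sets (grey), with those of the network in colour by role. Dashed lines mark 2-fold. Mnt is 1 of the 17 probe sets on or above the upper line, and the other colored points lie between -0.38 and 0.43.

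The genes with an E-box in their promoter had no common value. By the brightest probe set the log2 differences were 1.00 for Mnt, 0.21 for Mlx (-0.06 by its other probe set), 0.09 for Max and -0.00 for Mxd4. Of the genes without the site in these promoters, Mlxip had 0.43, Mycn 0.04, Mxd1 0.01, Mxi1 -0.19 and Mxd3 -0.38. Myc had no promoter sequence to search and stands in neither group.

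Relatives, cofactors and regulators of the network were read from a list of 25 genes, of which 21 were scored. None differed by 1.5-fold. Of all 10611 scored genes 0.556% were at least 1.5-fold higher and 0.81% at least 1.5-fold lower. The median over the list was 0.03 on the log2 scale. The largest difference was that of Usp36, a nucleolar deubiquitinase that stabilizes MYC, with log2 intensities of 7.55 with vehicle and 8.05 with J147 by 1455237_at, a fold of 1.41. Its other probe sets had folds of 1.13 and 0.997. Usp28, another deubiquitinase of MYC, had log2 intensities of 6.78 and 7.00, a fold of 1.15. Among the corepressors that MNT and MXD proteins recruit, Sin3a, Sin3b, Hdac1 and Hdac2 were close to equal. By the brightest probe set their log2 differences were 0.03, -0.03, 0.03 and -0.06, in that order. Mga, a large protein that pairs with MAX, had -0.11. These 5 were picked after their values were seen. The corepressor Ncor1, also in the list, was not among the scored genes.

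All 40 genes of a list known to be activated by MYC were scored, and none was 1.5-fold higher or lower. The shifts were small and mostly upward, with 28 of the 40 above 0.01 log2 units and 4 below -0.01. Over all scored genes 33.7% lay above 0.01 and 44.5% below -0.01. The list was chosen with earlier results of these arrays known, so these shares describe it and do not test it. The median log2 difference was 0.09, and it lay between 0.0863 and 0.104 over the settings tried. The genes of the list were also brighter than most, with a median log2 level of 11.98 against 8.33 over all scored genes. With a lowess curve of the difference on level taken off, the list median was 0.093, and with quantile normalization it was 0.0904. The part of level in the shift was not tested further. The largest differences were those of Hk2, a hexokinase, with log2 intensities of 9.75 with vehicle and 10.27 with J147 and a fold of 1.42, and of Ppan, a ribosome biogenesis factor, with 9.53 and 10.02 and a fold of 1.40. Other well-known targets, picked with their values known, were found above and below the median. Higher ones were the phosphatase gene Cdc25a with a log2 difference of 0.34, the nucleolar gene Gnl3 with 0.33, the translation factor gene Eif4e with 0.20 and the polyamine enzyme gene Srm with 0.16. Below the median by the brightest probe set were nucleolin, Ncl, with 0.08 and another polyamine enzyme gene, Odc1, with 0.01. Nucleophosmin, Npm1, with -0.00 and the pyrimidine synthesis gene Cad with -0.06 were also below it. Dimmer probe sets of Ncl had 0.16 and 0.11, above the median, so the side on which Ncl lies depends on the probe set. The E-box lay in 11 of 37 promoters of this list, which is 29.7%, against 7.15% of all promoters, with no match for GC content. In the other lists it lay in 6.67% of 30 promoters of relatives and cofactors, 15.4% of 13 of genes repressed by MYC, 11.1% of 9 of genes activated by MLXIP or its paralog and 0 of 15 of the other E-box factors.

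Of 14 genes known to be repressed by MYC 11 were scored, and 3 of these were lower by 1.5-fold or more with J147 while none was higher by as much, against 0.81% lower and 0.556% higher over all scored genes. This list was chosen with earlier results of these arrays known, so the contrast is a description and not a test. Ccng2, which encodes cyclin G2, had log2 intensities of 7.04 with vehicle and 5.78 with J147, 2.40-fold lower, and its other probe set went from 2.85 to 2.26, close to the floor of 2.23, so no fold is given for it. Cdkn1a, the cell cycle inhibitor p21, was 1.67-fold lower by the brighter probe set, from 11.61 to 10.88, and 1.62-fold lower by the other. Gadd45a, a stress-induced gene, was 1.57-fold lower, from 8.54 to 7.90. Cdkn1a and Gadd45a are also established targets of p53, and Ccng2 is a target of FOXO factors. The list had 7 genes below -0.01 and 4 above 0.01, and its median log2 difference of -0.17 was -0.12 by the mean of a gene's probe sets and -0.05 with no filter on intensity.

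Genes that MLXIP or its paralog activates with MLX numbered 8, and none of the 7 scored was 1.5-fold higher or lower. Txnip, the best known target and an inhibitor of glucose uptake, had log2 intensities of 8.57 with vehicle and 8.13 with J147 by 1415996_at, 1.36-fold lower, and an identical value of 4.83 on both arrays by 1415997_at. Acaca, an enzyme of fatty acid synthesis, was 1.10-fold lower, from 9.45 to 9.32. The median of the list was -0.00, while Mlxip itself had a log2 difference of 0.43.

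Other bHLH-leucine zipper factors that bind the E-box, 8 of 9 scored, also had none that was 1.5-fold higher or lower. The largest differences were -0.29 for Usf2 and 0.25 for Usf1. For Usf2 the log2 intensities were 8.12 with vehicle and 7.83 with J147 by 1418241_at, while a dim probe set had a difference of 0.12. For Usf1 they were 7.15 and 7.41 by 1426164_a_at, and another probe set, 1448805_at, had the opposite sign at -0.19. The median was 0.05, and it was -0.00 without probe sets of the suffixes _x_at, _s_at and _a_at. Tfap4 is in this list and in that of genes activated by MYC.

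**Figure D4:**
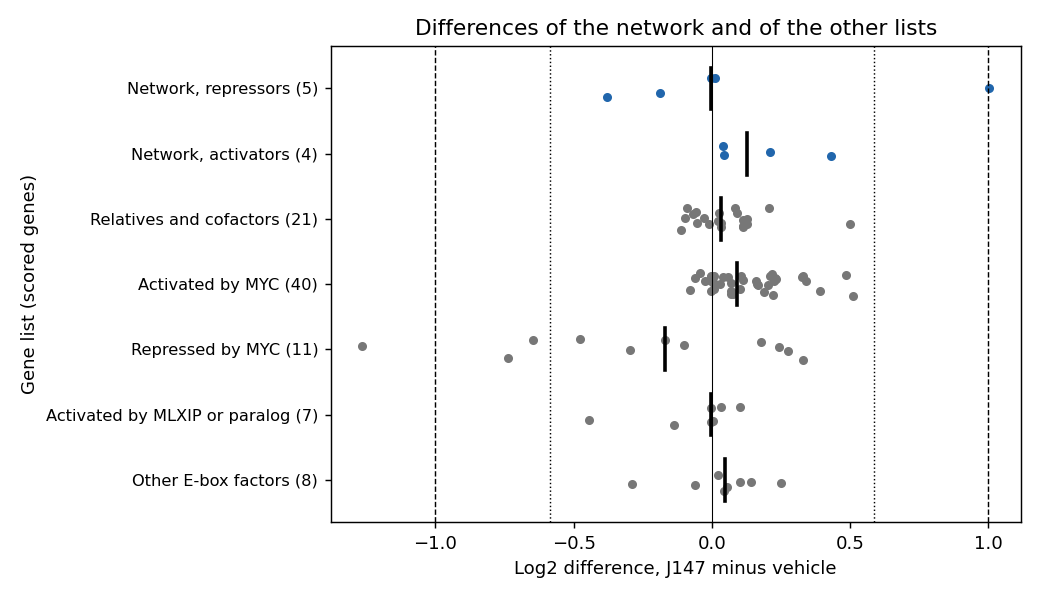
Gene lists (vertical axis, with how many genes were scored) against the log2 difference of J147 minus vehicle (horizontal axis), drawn as 1 point per gene, with medians as black bars, 2-fold as dashed lines and 1.5-fold as dotted lines. The genes activated by MYC lie mostly right of 0 with a median of 0.09, and 3 genes repressed by MYC lie left of the 1.5-fold line.

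Of 8 markers of neurons 2 were above the floor by more than 0.01 log2 units, against 7 of 7 of fibroblasts, 2 of 7 of astrocytes, 3 of 7 of microglia, 0 of 4 of oligodendrocytes and 0 of 5 of endothelium. Of the neuronal markers Map2, Rbfox3, Snap25, Syt1, Nefl and Dcx lay at the floor on both arrays, Syp was close to it at 2.73, and Tubb3 had log2 intensities of 7.997 with vehicle and 8.23 with J147. Of the control probe sets, hybridization spikes had a median log2 difference of 0.14, labelling spikes -0.14 and 18S rRNA -0.62, and their part in the differences above was not tested. The change of the 3′ minus 5′ difference, a sign of RNA integrity, was -0.06 log2 units for Gapdh and -0.03 for the actin control.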

How the data were processed

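RNA of HT22 cells was hybridized to Affymetrix arrays, 1 per condition. The authors ran gcRMA in R to summarise each probe set and deposited the result as log2 intensities. Affymetrix Expression Console 1.0 was also named in the submitters' notes. The gcRMA version and genome build are not given in the sources used here. Of 45037 probe sets that are not controls, 34945 have 1 gene symbol in the array annotation, 932 several and 9160 none. Symbols were updated by Entrez number to RefSeq genes of GRCm38.p6.

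Arrays were scaled to a median of 100, as in the methods, and probe sets with a mean above 100 were scored. The methods use the median for that filter, which equals the mean with 2 arrays. The brightest scored probe set stood for a gene. No test was possible with 1 array per condition. The members and lists were chosen with earlier results of these data known. All members were named, and from each other list up to 4 genes that differed by 1.5-fold or more, and where there were none, the 2 that differed most. Further genes of the relatives list and of the list activated by MYC were named outside this rule, after their values were seen. Alternatives were the deposited scale, quantile normalization, a lowess curve (span 0.3), a pseudocount of 50, other filters, other ways to combine probe sets, and thresholds of 1.5-fold and 2.5-fold. Python 3.11.15, numpy 2.4.6, pandas 2.3.3, statsmodels 0.14.6 and matplotlib 3.10.9 were used. The calculation was run on simulated data with planted changes beyond 2-fold and a smaller spread than in these arrays. That run does not show how calls near 2-fold behave. Precision is limited by the number of arrays.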

Additional observations from a re-analysis of the deposited data

How the results depend on the processing

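The alternatives gave 211 values, of which 193 were near those in the report (within 1.5 times for counts, within 1 SD of the 500 neighbours in level for a gene and within 0.05 log2 units for a median). The other 18 moved. Part of the agreement follows by construction, since a gene was read by its brightest probe set, which every intensity filter kept for each member. For a gene with 1 scored probe set, averaging its probe sets also returned the same value. A change of sign was looked for only in genes with a difference of 2-fold or more, which was Mnt alone, and 0 were found. Smaller values could change sign without being counted, such as Mxd4 and the repressors' median, which both ranged from -0.0986 to 0.0252. With a pseudocount of 50 no probe set of the network was at least 2-fold higher (0, against 1), and 11 of all scored probe sets were, against 17. At 2.5-fold the count for the network was 0, and over all scored probe sets it was 4 higher and 2 lower. At 1.5-fold these were 193 and 176, against 17 and 16 at 2-fold. Without probe sets of the suffixes _x_at, _s_at and _a_at, which leaves out Myc and Mlx, the median log2 difference was -0.0986 for the repressors and 0.235 for the activators, a difference of -0.333. In that setting Mxd4 was read by 1422574_at, at -0.0986, in place of 1434378_a_at. When probe sets of a gene were averaged, Mlx had 0.0768 and the activators had a median of 0.0596. With Myc and Mycn alone they had 0.0405, and the difference was -0.045. Without Mnt, a setting added after seeing the data, the repressors had -0.0961 and the difference was -0.223. All these moves follow by construction, since a pseudocount, a threshold or another choice of genes or probe sets changes the values used. The other 3 moves were medians of gene lists, given in the report. No paired analysis was possible because each condition has 1 array. For the same reason no array could be left out. Probe sets at the floor cannot show a fall, nor a rise that stays below it, which concerns 4 of the 22 of the network, 2 of Mycn, 1 of Mnt and 1 of Mxd1.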
